A study of Mus musculus with 10 samples.

Results

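A set of 6 genes with marked gains of H3K4me3 inside or at the start of the gene in *Setd1b* cKO oocytes was followed window by window: *Itgb6*, *Mllt6*, *Ackr3*, *Slit3*, *Ldb2* and *Fam227a*. They are 6 of the 26309 genes to which the table assigns windows, and their 229 windows are part of 544879 windows of 5 kb. The members were chosen by measured values, their difference between cKO and WT H3K4me3 in these 6 libraries, and all windows assigned to each gene were then taken, with 5 windows of flank on each side. H3K4me3 differences of the members, and counts of their windows past a threshold, are therefore given as a description, without p-values. *Ackr3* appears in the table under its older symbol *Cxcr7*, and *Fam227a* as *4933432B09Rik*, which was matched by its Ensembl identifier.

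H3K4me3 was measured by ULI-nChIP-seq, a native ChIP-seq for few cells in which chromatin is cut with micrococcal nuclease without crosslinking. Each library was made from about 200 germinal vesicle (GV) oocytes, which are arrested before meiosis resumes, from ovaries of 21-day-old females, C57BL6 in the labels (C57BL/6OlaHsd in the methods of the study). The labels give *Setd1b* floxed/floxed alleles for every library. By the labels, the cKO females were *Gdf9*-Cre positive (3 H3K4me3 libraries, replicates 1, 3 and 4, and 2 input libraries) and the WT females *Gdf9*-Cre negative (3 H3K4me3 libraries, replicates 1, 2 and 4, and 2 input libraries). The methods also count females with 1 floxed allele and *Gdf9*-Cre as WT, a genotype that the labels give for no library. *Gdf9*-Cre acts in oocytes, so the deletion spares the other cells of the ovary. The labels call the libraries biological replicates and do not say how many females were pooled for each.

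H3K4me3 is placed by methyltransferases of the SET1 and MLL family, of which SETD1B is a member, and in most cells it marks the CpG-rich promoters of active genes. Growing oocytes also carry it in broad domains away from promoters, over gene bodies and intergenic sequence that lacks DNA methylation. The members have unrelated roles. ITGB6 is an integrin subunit of epithelia that pairs with the alpha V subunit, and MLLT6 (AF17) is a nuclear protein known as a fusion partner of MLL in leukaemia. ACKR3 is an atypical receptor for the chemokine CXCL12, SLIT3 is a secreted ligand of ROBO receptors, and LDB2 is an adaptor that binds LIM domains. FAM227A is poorly characterized.

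The sequence with the most CpGs in the largest-gain window of *Itgb6*, *Mllt6*, *Ackr3*, *Slit3* and *Ldb2* is shown as an example of its DNA, since H3K4me3 was measured per 5 kb and not per stretch. It was the 300 bases outside exons with the highest CpG count, read from GRCm38 on the strand of the gene, with each CpG in capitals. The stretch of *Itgb6* lies in intron 1 at chr2:60715772-60716071 (minus strand), that of *Mllt6* in intron 16 at chr11:97677448-97677747 (plus strand), and that of *Ackr3* 1.65 kb before the TSS at chr1:90202180-90202479 (plus strand). The stretch of *Slit3* lies in intron 4 at chr11:35480048-35480347 (plus strand), and that of *Ldb2* in intron 1 at chr5:44794517-44794816 (minus strand).
Itgb6: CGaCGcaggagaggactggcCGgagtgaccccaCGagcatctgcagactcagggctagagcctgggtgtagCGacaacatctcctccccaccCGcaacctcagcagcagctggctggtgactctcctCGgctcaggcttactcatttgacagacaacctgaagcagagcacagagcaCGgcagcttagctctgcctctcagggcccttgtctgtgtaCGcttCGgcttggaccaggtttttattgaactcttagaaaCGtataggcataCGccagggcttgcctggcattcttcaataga
Mllt6: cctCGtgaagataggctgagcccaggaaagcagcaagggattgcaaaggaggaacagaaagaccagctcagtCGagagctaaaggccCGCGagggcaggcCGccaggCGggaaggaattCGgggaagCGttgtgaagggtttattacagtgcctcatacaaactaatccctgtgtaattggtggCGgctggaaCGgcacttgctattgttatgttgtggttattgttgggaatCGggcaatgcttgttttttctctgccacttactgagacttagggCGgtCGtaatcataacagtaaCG
Ackr3: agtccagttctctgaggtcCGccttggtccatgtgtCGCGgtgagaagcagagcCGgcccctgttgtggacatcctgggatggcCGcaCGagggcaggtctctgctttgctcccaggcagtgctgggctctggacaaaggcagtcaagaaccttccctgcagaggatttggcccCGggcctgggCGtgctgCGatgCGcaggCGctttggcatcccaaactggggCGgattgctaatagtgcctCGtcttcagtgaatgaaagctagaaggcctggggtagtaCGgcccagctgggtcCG
Slit3: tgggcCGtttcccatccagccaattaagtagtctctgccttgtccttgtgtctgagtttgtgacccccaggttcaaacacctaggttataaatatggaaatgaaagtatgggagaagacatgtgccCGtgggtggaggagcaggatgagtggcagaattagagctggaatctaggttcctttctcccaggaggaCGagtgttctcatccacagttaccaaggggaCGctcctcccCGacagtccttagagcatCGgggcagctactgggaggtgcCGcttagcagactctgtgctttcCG
Ldb2: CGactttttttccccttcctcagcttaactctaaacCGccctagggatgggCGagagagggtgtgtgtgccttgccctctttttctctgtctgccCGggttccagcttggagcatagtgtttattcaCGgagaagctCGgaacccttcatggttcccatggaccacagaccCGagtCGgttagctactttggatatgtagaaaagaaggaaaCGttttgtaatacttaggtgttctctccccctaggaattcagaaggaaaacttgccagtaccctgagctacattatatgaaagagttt
The stretches held 12 CpGs in *Itgb6*, 14 in *Mllt6*, 15 in *Ackr3*, 8 in *Slit3* and 9 in *Ldb2*, against a median of 7 for the densest 300 bases of all windows. A stretch at least as dense was present in 9.63% of all windows for *Ackr3*, 11.4% for *Mllt6*, 17.0% for *Itgb6*, 34.5% for *Ldb2* and 43.4% for *Slit3*. The stretches of *Slit3* and *Ldb2* were therefore of a density that many windows of the genome reach.

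The unit throughout is the authors' enrichment-normalized RPKM, in which the 40th percentile (1.23) and the 99th percentile (6.77) of windows are equal in all 6 libraries. Depth was 10856015 to 32775874 reads in windows per H3K4me3 library and 20756128 to 26566505 per input library. The value at 0 reads was 0.810, -0.0359 and 0.2996 in WT replicates 1, 2 and 4, and 0.785, -1.02 and -0.70 in cKO replicates 1, 3 and 4, so cKO replicate 1 was scaled like WT replicate 1 and the other 2 cKO libraries were stretched further. Member means are also given without cKO replicate 1. This keeps only the 2 cKO libraries that were stretched further, so it is no check on the scaling. The window with the *Setd1b* TSS had 7.56, 7.65 and 6.11 in WT and 4.50, 4.66 and 3.93 in cKO, which does not measure the deletion itself. At the TSS windows of 8 oocyte genes the summed value was 45.4 to 54.0 in WT and 43.4 to 44.6 in cKO, with the lowest mean at *Zp3* in both (4.69 in WT and 3.79 in cKO). The TSS window of *Gdf9* was higher in cKO (7.46 in WT and 10.7 in cKO), and those of *Bmp15*, *Zp1* and *Zp2* were lower by 1.80 to 2.65. At those of 8 genes of somatic ovarian cells it was 22.5 to 23.4 in WT and 28.1 to 32.9 in cKO. All 8 had the higher mean in cKO, by 2.85 at *Foxl2* (4.21 in WT and 7.06 in cKO) and 1.67 at *Wt1* (4.63 in WT and 6.30 in cKO), both without overlap, and by 0.12 to 0.70 at the other 6. The part of somatic cells in the member values was not tested.

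*Itgb6* was higher in cKO along its whole length. The gene spans chr2:60598292-60722643 on the minus strand of GRCm38 (124.352 kb, 18 exons) and holds 26 windows. Over these windows its mean was 1.58, 1.52 and 1.62 in the WT libraries and 3.72, 4.46 and 3.58 in the cKO libraries. No cKO library overlapped the WT libraries, and the means were 1.57 ± 0.0505 (SD, n = 3) in WT and 3.92 ± 0.471 (SD, n = 3) in cKO. The difference was 2.35, and 2.45 without cKO replicate 1. The cKO mean was the higher one in all 26 windows (43.7% of all windows of the genome), and in 24 of them every cKO library lay above every WT library (9.88% of all windows).

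The largest gain of *Itgb6* was in intron 1, with its centre 5.14 kb behind the TSS, in the window chr2:60715001-60720000 that holds the sequence printed above. WT libraries had 2.22, 2.10 and 2.07 there and cKO libraries 6.33, 8.36 and 7.45, a difference of 5.25. The WT mean of this window was at percentile 65.8 of all windows and the cKO mean at percentile 99.8. A second high stretch lay in the 3′ part of the gene: the window chr2:60635001-60640000 in intron 10 had 3.53, 4.34 and 4.44 in WT and 7.72, 6.91 and 7.74 in cKO. The lowest difference in the gene, 0.31, was in its last window, which holds no exon of the main transcript. At the TSS window, the level was 1.07, 1.81 and 0.69 in WT and 3.89, 6.25 and 3.45 in cKO. The gain went on upstream of the TSS, where the 5 flank windows averaged 1.07 ± 0.180 (SD, n = 3) in WT and 2.79 ± 0.209 (SD, n = 3) in cKO, whereas the downstream flank differed by 0.308, less than the SD of the cKO libraries (0.488).

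*Fam227a* had its largest gain toward the 3′ end. It spans chr15:79609576-79658956 on the minus strand (49.381 kb, 18 exons) and holds 10 windows. Its mean was 1.90, 2.29 and 2.09 in the WT libraries and 4.35, 4.16 and 4.67 in the cKO libraries, so the groups did not overlap. The means were 2.10 ± 0.193 (SD, n = 3) in WT and 4.39 ± 0.257 (SD, n = 3) in cKO, a difference of 2.30 that was 2.32 without cKO replicate 1. At the largest gain, chr15:79615001-79620000 over exons 16 and 17, WT libraries had 1.96, 2.69 and 2.76 and cKO libraries 6.05, 6.91 and 6.15.

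The TSS window of *Fam227a* was among its windows with a small difference. The TSS window, shared with *Cby1*, had 4.995, 5.51 and 5.13 in WT and 5.28, 4.93 and 7.98 in cKO, and these groups overlapped. Its difference of 0.85 rested on cKO replicate 4 and was -0.11 without that library. The smallest difference of the gene, 0.73, was inside the body at chr15:79635001-79640000, where WT libraries had 1.07, 1.13 and 0.87 and cKO libraries 1.73, 0.96 and 2.58. Upstream of *Fam227a*, the window chr15:79680001-79685000 over *Josd1* and *Gm49520* went the other way, with 8.34, 8.53 and 8.06 in WT and 4.33, 4.93 and 4.80 in cKO. The downstream flank differed by 0.0073.

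**Figure D1:**
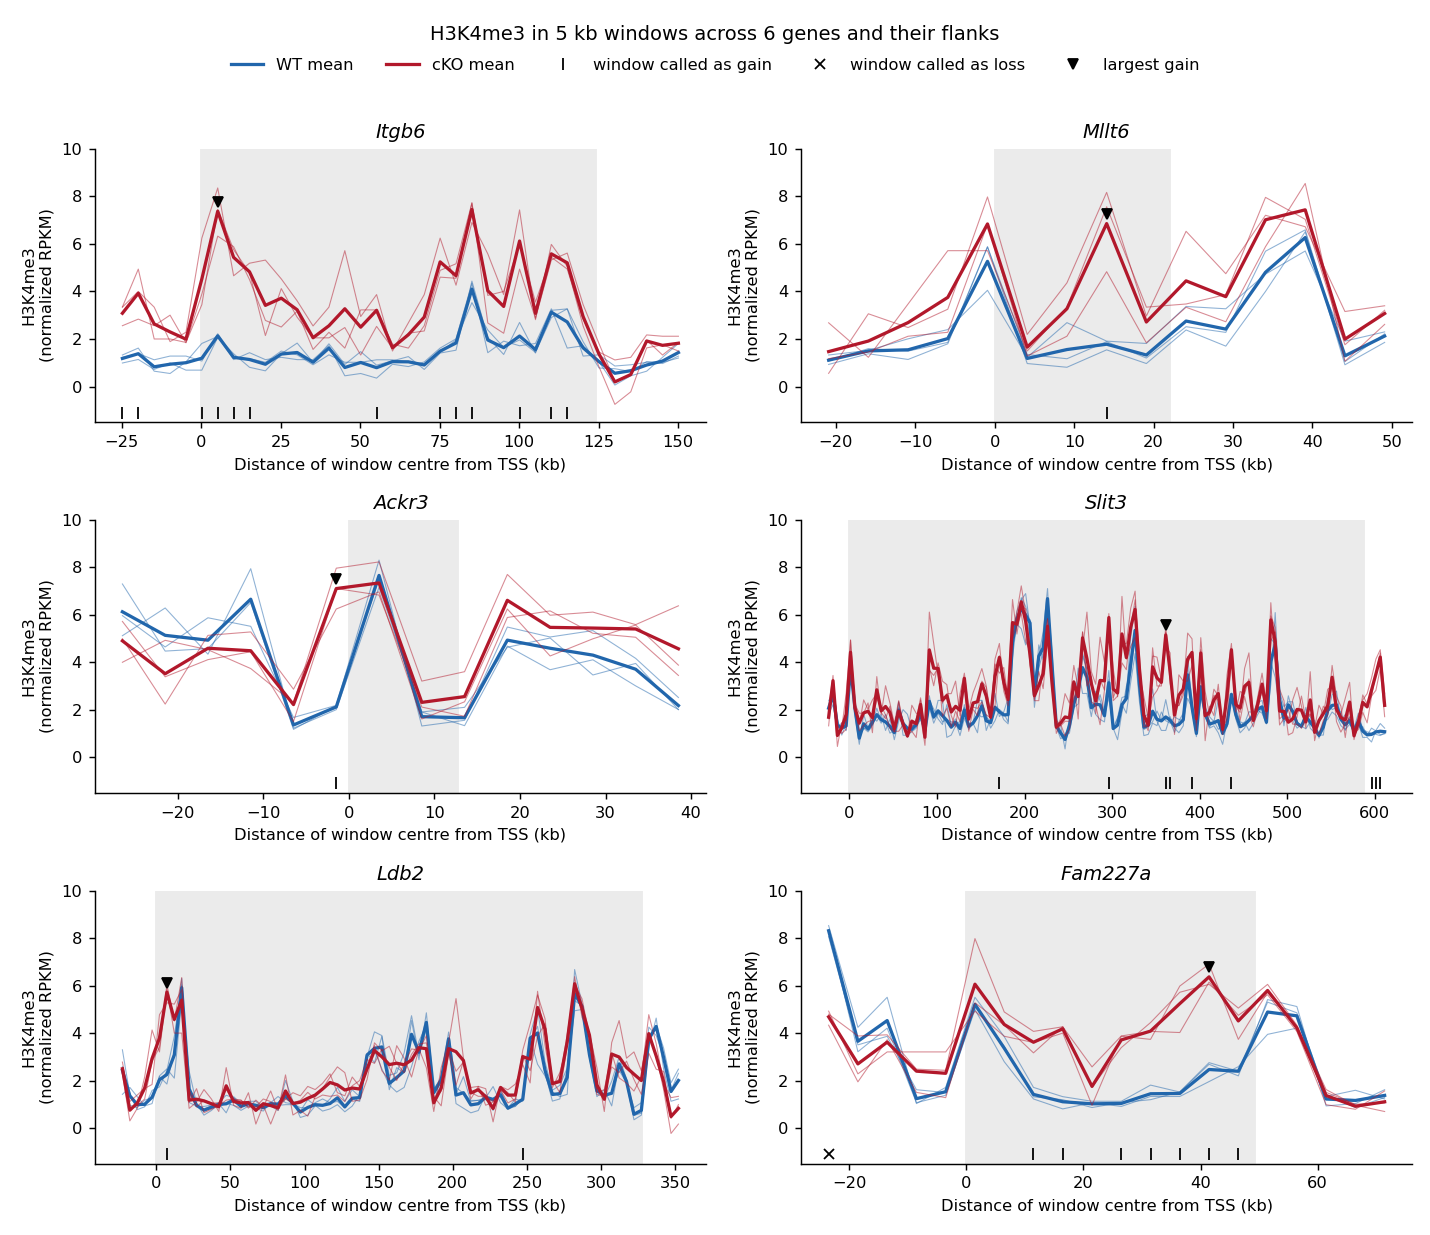
H3K4me3 (normalized RPKM) in 5 kb windows by the distance of the window centre from the TSS (kb, in the direction of transcription), with the gene shaded and 5 flank windows on each side. Thin lines are the libraries (3 WT in blue, 3 cKO in red), thick lines are group means, ticks mark windows called as gain, the cross marks a window called as loss, and the triangle marks the largest gain. In *Itgb6* the cKO mean is above the WT mean in all 26 windows, whereas in *Ldb2* it is above in 46 of 66 windows.

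*Mllt6* had a gain of similar size in a small gene. It spans chr11:97663414-97685463 on the plus strand (22.05 kb, 20 exons), and 5 windows are assigned to it, since the table lists the window with its TSS under *Gm11613*. The mean of the 5 windows was 1.33, 2.20 and 1.62 in the WT libraries and 2.68, 3.84 and 4.85 in the cKO libraries. The groups did not overlap, but the cKO libraries were spread widely, with means of 1.72 ± 0.442 (SD, n = 3) in WT and 3.79 ± 1.08 (SD, n = 3) in cKO. The difference was 2.07, and 2.62 without cKO replicate 1.

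One window set *Mllt6* apart. At chr11:97675001-97680000, over exons 13 to 18 and the microRNA gene *Mir6927*, WT libraries had 1.54, 1.91 and 1.89 and cKO libraries 4.83, 7.57 and 8.17, a difference of 5.08. The other 4 windows of *Mllt6* differed by 0.48 to 1.72. The last of them, chr11:97685001-97690000 (1.69), holds only the end of *Mllt6* and also overlaps *Cisd3* and *Pcgf2*. At the CpG-rich TSS window (293 CpGs), the level was already high in WT, with 5.88, 4.05 and 5.87, and was 6.83, 5.72 and 7.98 in cKO, with overlap. Both flanks were higher in cKO as well, by 1.05 upstream and 1.28 downstream.

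*Ackr3* is the member whose gain was at its start and not inside the gene. It spans chr1:90203980-90216751 on the plus strand (12.772 kb, 2 exons) and holds 4 windows. Its largest gain was in chr1:90200001-90205000, the window with the TSS, most of which lies before the gene. WT libraries had 2.17, 2.01 and 2.19 there and cKO libraries 7.11, 7.96 and 6.24, a difference of 4.98. The next window, inside intron 1, was high in both genotypes, with 7.51, 7.16 and 8.30 in WT and 6.83, 8.23 and 6.97 in cKO, and these groups overlapped. Of these 2 windows, both were thus high in cKO and only the one behind the TSS in WT. Farther upstream WT was high as well, with means of 6.66 at chr1:90190001-90195000 and 6.13 at chr1:90175001-90180000, against 4.49 and 4.90 in cKO. The window next to the TSS window, chr1:90195001-90200000, was low in both (1.36 in WT and 2.22 in cKO).

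The mean over the 4 windows of *Ackr3* was 3.23, 3.30 and 3.34 in the WT libraries and 4.45, 5.75 and 4.29 in the cKO libraries, without overlap. The group means were 3.29 ± 0.0564 (SD, n = 3) in WT and 4.83 ± 0.802 (SD, n = 3) in cKO, a difference of 1.54, and 1.73 without cKO replicate 1. Without the TSS window the difference of the gene mean was 0.392. The upstream flank was lower in cKO, with 4.84 ± 0.128 (SD, n = 3) in WT and 3.94 ± 0.140 (SD, n = 3) in cKO. The downstream flank was higher, with 3.94 ± 0.519 (SD, n = 3) in WT and 5.50 ± 0.743 (SD, n = 3) in cKO.

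*Slit3* is the longest member and its gains were scattered. It spans chr11:35121224-35708507 on the plus strand (587.284 kb, 36 exons) and holds 118 windows. The cKO mean was higher in 93 windows (43.7% of all windows of the genome), every cKO library was above every WT library in 39 (9.88% of all windows) and below in 5 (9.95%). Over the gene the mean was 2.00, 2.11 and 2.23 in the WT libraries and 2.61, 2.93 and 2.85 in the cKO libraries, without overlap. The group means were 2.12 ± 0.116 (SD, n = 3) in WT and 2.80 ± 0.169 (SD, n = 3) in cKO, a difference of 0.68, and 0.776 without cKO replicate 1. At its largest gain, chr11:35480001-35485000 in intron 4, WT libraries had 1.54, 1.13 and 2.43 and cKO libraries 5.28, 4.66 and 5.52.

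In the same intron of *Slit3* the window chr11:35325001-35330000 had the smallest difference, -1.34, with 5.68, 5.80 and 5.49 in WT and 4.61, 3.87 and 4.46 in cKO. A window lower in cKO and the window with the largest gain thus lay in the same intron. The TSS window had 3.53, 3.95 and 4.05 in WT and 4.94, 4.93 and 3.40 in cKO, and the groups overlapped. Past the 3′ end the flank was 1.03 ± 0.0292 (SD, n = 3) in WT and 2.97 ± 0.446 (SD, n = 3) in cKO, whereas the upstream flank differed by 0.0506.

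*Ldb2* had the smallest mean difference of the members. It spans chr5:44472132-44799680 on the minus strand (327.549 kb, 8 exons) and holds 66 windows, of which 46 had the higher mean in cKO (43.7% of all windows). In 19 windows every cKO library was above every WT library (9.88% of all windows) and in 2 below (9.95%). The gene mean was 1.996, 1.78 and 1.90 in the WT libraries and 2.33, 2.34 and 2.26 in the cKO libraries, which did not overlap. The group means were 1.89 ± 0.109 (SD, n = 3) in WT and 2.31 ± 0.0441 (SD, n = 3) in cKO, a difference of 0.416, and 0.407 without cKO replicate 1.

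Its largest gain was near the start of *Ldb2*. At chr5:44790001-44795000 in intron 1, WT libraries had 1.86, 2.49 and 2.43 and cKO libraries 5.28, 5.85 and 6.05, a difference of 3.47. The adjoining TSS window had 2.17, 2.20 and 1.74 in WT and 4.78, 3.21 and 3.40 in cKO, without overlap. The other called gain of *Ldb2* lay 247 kb behind the TSS, at chr5:44550001-44555000 in intron 2, with 1.28, 1.13 and 1.23 in WT and 3.28, 3.08 and 2.68 in cKO. The smallest difference was -1.11, at chr5:44615001-44620000 in intron 2, with 4.16, 4.34 and 4.86 in WT and 3.89, 2.55 and 3.59 in cKO. The downstream flank was also lower in cKO, with 2.91 ± 0.301 (SD, n = 3) in WT and 2.06 ± 0.447 (SD, n = 3) in cKO.

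**Figure D2:**
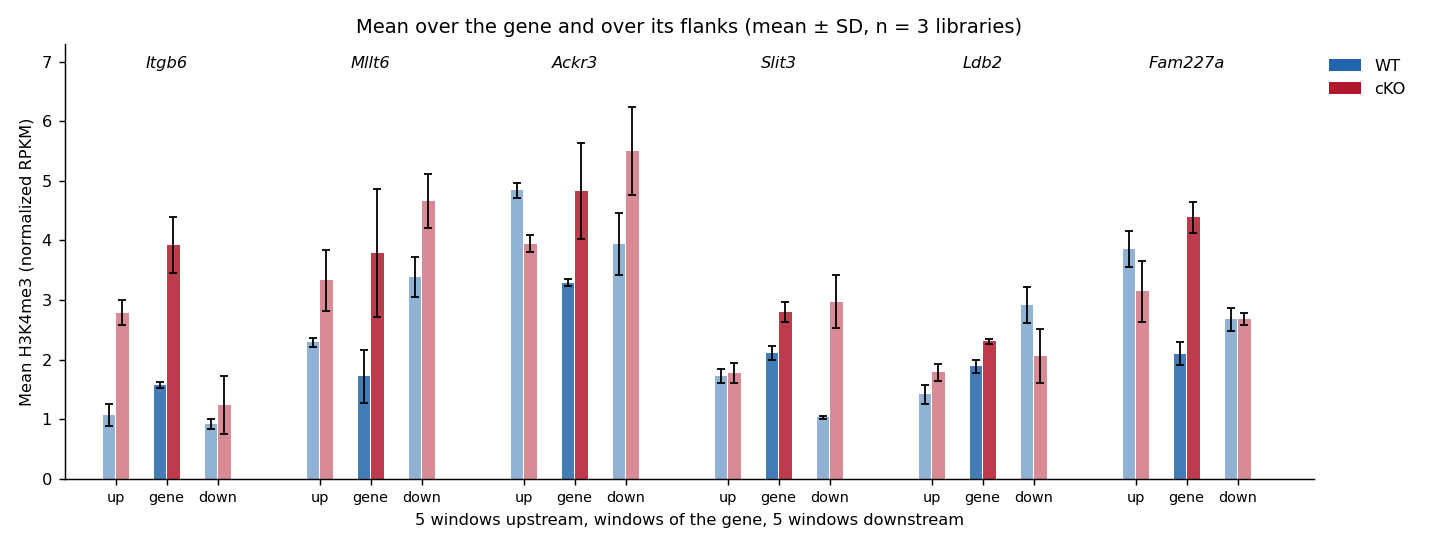
Mean H3K4me3 (normalized RPKM) over the 5 windows upstream, the windows of the gene and the 5 windows downstream, in WT (blue) and cKO (red); bars are means and whiskers the SD over 3 libraries. The cKO bar is higher over all 6 genes, and the flanks go either way, from -0.898 upstream of *Ackr3* to 1.94 downstream of *Slit3*.

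The TSS windows differed among the members. In *Mllt6*, *Fam227a* and *Slit3* it held 293, 130 and 180 CpGs and had a WT mean of 5.27, 5.21 and 3.84. In *Itgb6*, *Ackr3* and *Ldb2* it held 54, 81 and 47 CpGs and had a WT mean of 1.19, 2.12 and 2.04. The difference at the TSS window was 1.57, 0.85 and 0.58 in the former and 3.34, 4.98 and 1.76 in the latter. With single libraries left out it ran from 0.319 to 1.09 in *Slit3* and from 0.963 (without WT replicate 2) to 2.13 in *Mllt6*. Between *Ldb2* and *Mllt6* the order of these differences turned with single libraries left out (1.27 in *Ldb2* and 1.58 in *Mllt6* without cKO replicate 1).

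The reads behind the largest-gain windows were recovered from the normalized values, which are a linear rescaling of them in each library. They come from the libraries that chose the windows, so they show the depth behind each value and are no separate support. The largest-gain window of *Itgb6* had 27, 22 and 59 reads in WT and 100, 71 and 169 in cKO. Scaled to library size (RPM) this was 2.06, 2.03 and 1.80 in WT and 7.83, 5.96 and 5.82 in cKO, a difference of 1.50 in log2(RPM + 0.5). The windows of *Mllt6*, *Ackr3*, *Slit3*, *Ldb2* and *Fam227a* differed by 1.67, 1.48, 1.46, 1.17 and 1.19 on the same scale. The groups did not overlap in any of the 6 windows, which follows from choosing the largest gain of each gene (in normalized RPKM every cKO library was above every WT library in 9.88% of all windows). In *Mllt6*, cKO replicate 1 was lowest of the cKO libraries in normalized RPKM (4.83) but not in RPM (5.72, against 5.46 in replicate 3). In *Itgb6* it was also lowest in normalized RPKM (6.33) but highest in RPM (7.83).

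Input libraries were not used to choose the members and could be tested. In the largest-gain windows, input ranged from 1.24 to 3.12 RPM over the 4 libraries, WT H3K4me3 from 1.07 to 2.58 and cKO H3K4me3 from 3.61 to 8.93. In *Itgb6*, *Mllt6*, *Ackr3*, *Slit3* and *Ldb2* no WT library exceeded the highest input library of the same window. In *Fam227a*, WT replicates 2 and 4 (2.58 and 2.50) did, the highest input there being 1.93. Of the 229 member windows, 0 differed between the genotypes in input by limma with Benjamini-Hochberg adjustment over all windows (0.00679% of all windows called; lowest adjusted p among members 1). At an unadjusted p under 0.05, 6 did by limma (2.62%, against 3.22% of all windows), and edgeR called 0 and had 4 at an unadjusted p under 0.05 (4.54% of all windows). With 2 input libraries per genotype, small differences would not be detectable.

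**Figure D3:**
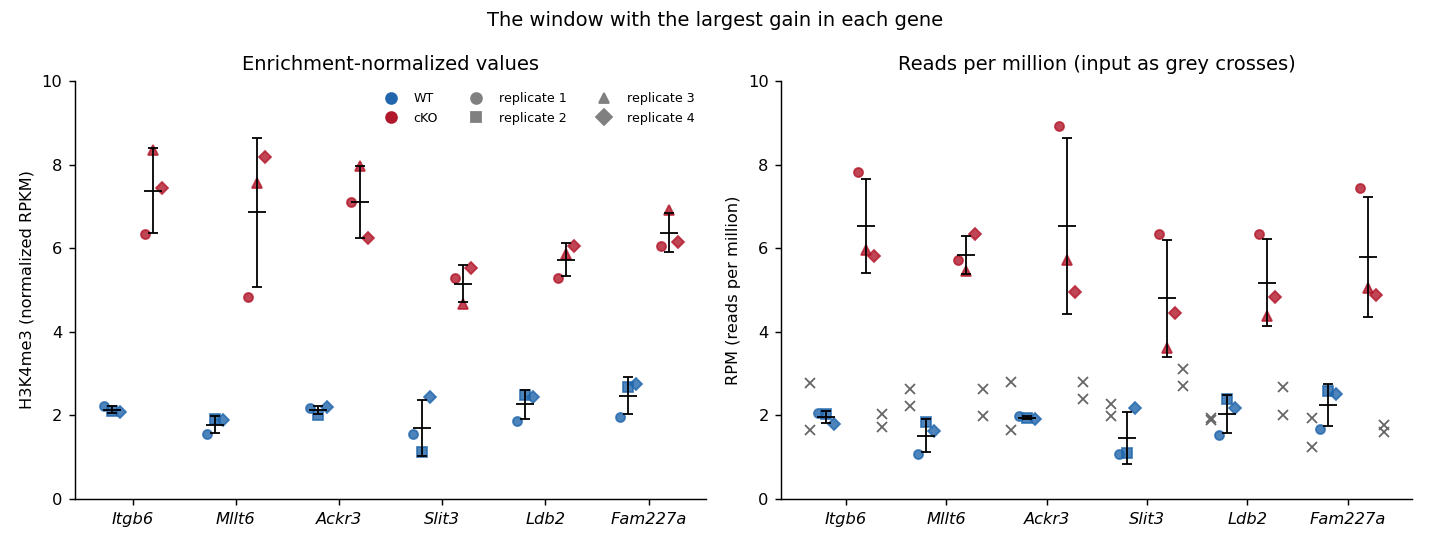
Values of each library in the largest-gain window of the 6 genes, as normalized RPKM (left) and as RPM (right), with WT in blue, cKO in red, a symbol for each replicate, and mean and SD (n = 3) in black; grey crosses are the input libraries, WT on the left and cKO on the right of each gene. All cKO points lie above all WT points in both panels, and the WT points are no higher than the highest input point in every gene except *Fam227a*.

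Across the 229 windows, the cKO mean was higher in 183 (79.9%, against 43.7% of all windows), and every cKO library was above every WT library in 93 (40.6%, against 9.88%) and below in 7 (against 9.95%). A difference of at least 2 was reached in 34 windows (14.8%, against 0.951%). The median difference was 0.65, and -0.10 over all windows. By limma on the deposited values, 28 member windows were called as gain, 12.2% where 0.563% of all windows were, and 0 as loss, where 0.454% were and where 5 member windows had a negative difference at an unadjusted p under 0.05. These counts follow from how the members were chosen. The 28 windows were 11 in *Itgb6*, 7 in *Fam227a*, 6 in *Slit3*, 2 in *Ldb2* and 1 each in *Mllt6* and *Ackr3*. Of them, 2 held the TSS of the gene, taken as its outermost start (*Itgb6* and *Ackr3*). Starts of other annotated transcripts lay in further called windows, such as 2 in chr2:60705001-60710000 of *Itgb6* and 1 in the largest-gain window of *Mllt6*. The longest run of neighbouring calls was 5 windows in *Fam227a* (chr15:79610001-79635000), 4 in *Itgb6* at the TSS (chr2:60705001-60725000) and 2 in *Slit3* (chr11:35480001-35490000). *Itgb6* had a further run of 3 (chr2:60635001-60650000) and of 2 (chr2:60605001-60615000), and *Fam227a* of 2 (chr15:79640001-79650000). In the flanks, 2 windows upstream of *Itgb6* and 3 downstream of *Slit3* were called as gain, and the window at *Josd1* as loss.

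The calls were sensitive to the fit. With an intensity trend 51 member windows were called as gain (1.57% of all windows) and with edgeR on whole reads 37 (1.07% of all windows), and 18 of the 28 were called by all 3 fits, while loss calls were 0 with both (2.01% and 1.2% of all windows), as were negative differences at an unadjusted p under 0.05. No member window was called without WT replicate 1, WT replicate 2, WT replicate 4 or cKO replicate 4, whereas 19 gains were without cKO replicate 3 and 40 without cKO replicate 1. This was so for the whole table, in which 1, 0, 0 and 0 windows were called in the former 4 fits, 1761 without cKO replicate 3 and 17979 without cKO replicate 1.

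Among the 6 genes only 3 rank at the very top. By their largest window, *Itgb6*, *Mllt6* and *Ackr3* are ranks 1, 2 and 3 of 26309 genes, followed by *Dnmt3a* at 4.98, and *Fam227a*, *Ldb2* and *Slit3* are ranks 48, 126 and 130. Just above *Slit3* is *Cerk* and just below it *Grm2*, both at 3.45. By the mean over windows among 12123 genes with at least 4 windows, *Itgb6* ranks 10, *Fam227a* 14, *Mllt6* 29, *Ackr3* 172, *Slit3* 1510 and *Ldb2* 3251. The genes whose mean over windows was most like the mean of the 6 members across the 6 libraries, among 10320 genes with at least 5 windows, were *Ttc28* (Pearson r 0.999), *Cdx1* (0.998), *1700025G04Rik* (0.998), *Pcdh1* (0.998) and *Cdh4* (0.998). With 6 libraries in 2 groups, such values need little more than a difference between the groups.

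CpG content varied within the members. The called windows had a median of 58 CpGs (range 38 to 99), the 201 windows not called 51, and all windows of the genome 35. Within *Itgb6*, CpG count and H3K4me3 difference had a Spearman's rho of 0.589 (26 windows), and the 13 windows above the median CpG count differed by a mean of 3.15, the other 13 by 1.55. With the CpGs of the densest 1 kb of each window the rho was 0.373. The rho was 0.0888 in *Slit3* (118 windows), 0.232 in *Ldb2* (66 windows) and 0.362 in *Fam227a* (10 windows). In *Fam227a* it was 0.746 without the TSS window, which has the most CpGs and a small difference. These windows share their libraries and neighbouring sequence and are not replicates.

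**Figure D4:**
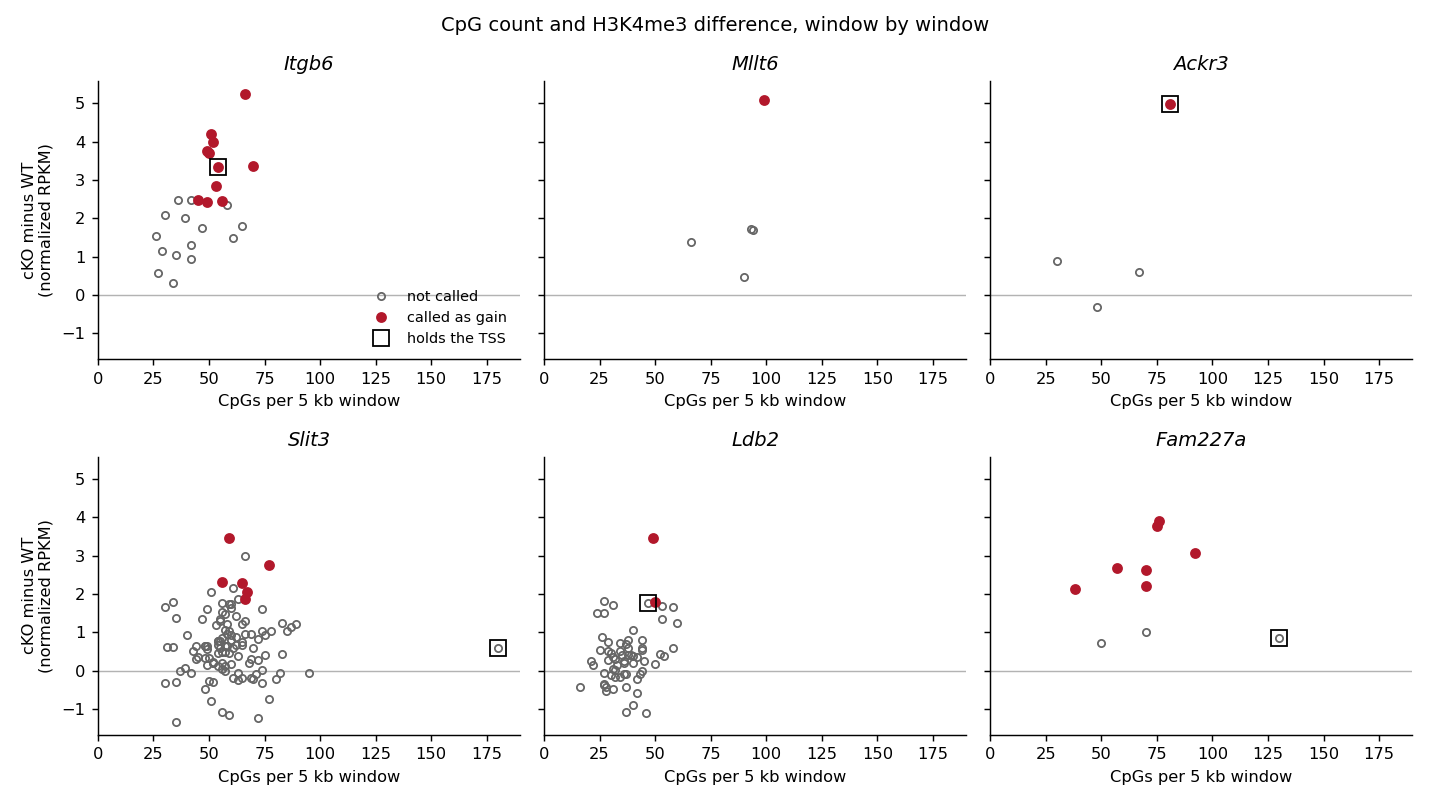
Difference in H3K4me3 (cKO minus WT, normalized RPKM) by the number of CpGs in each 5 kb window of the 6 genes; red points are windows called as gain, open points are not called, and squares hold the TSS. Windows of *Itgb6* with more CpGs tend to differ more (rho 0.589, and 0.373 for the densest 1 kb), whereas the CpG-rich TSS windows of *Slit3* and *Fam227a* lie low; the TSS window of *Mllt6* is assigned to another gene and is not drawn.

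Genes related to the members by family or partnership were examined to see whether they differed as well. Of 43 such genes, 41 had windows (732 in all), of which 7 were called as gain and 1 as loss (0.563% and 0.454% of all windows), with a median difference of 0.17 against -0.10 over all windows. Together these calls were 1.09% of the related windows, near the 1.02% of all windows. All but 1 of the gains were in partners of LDB2, with 6 of 195 windows (3.08%) by limma. Of the same 195 windows edgeR called 4 (2.05%, against 2.27% of all windows), of which only 1, in *Lhx2*, was also called by limma. The partners include LIM homeodomain and LMO proteins and single-stranded DNA-binding proteins that join the same complex. By limma *Ssbp3* had 3 called windows, *Lhx2*, a LIM homeodomain factor, 2 and *Lmo4*, a LIM-only protein, 1.

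The largest of these was in *Ssbp3*, 76.8 kb behind its TSS (chr4:106985001-106990000), with 2.80, 3.66 and 3.87 in WT and 6.66, 5.59 and 7.74 in cKO. The difference was 3.22 ± 0.542 (SE; limma adjusted p = 0.0326, up to 0.448 over the alternatives). In *Lhx2* the window 23.2 kb behind the TSS (chr2:38360001-38365000) rose from 1.12, 1.33 and 1.62 in WT to 3.67, 3.61 and 3.69 in cKO. Its difference was 2.30 ± 0.329 (SE; limma adjusted p = 0.0224, up to 0.437 over the alternatives). The window of *Lmo4* rose by 2.49 ± 0.420 (SE; limma adjusted p = 0.0329, up to 0.758 over the alternatives).

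*Robo1*, a receptor of SLIT3, had 1 called gain among 285 windows of SLIT and ROBO genes (0.351%, against 0.563% of all windows). This window lay 464 kb behind the TSS of *Robo1*. It rose from a WT mean of 2.60 ± 0.173 (SD, n = 3) to a cKO mean of 4.51 ± 0.554 (SD, n = 3; limma adjusted p = 0.0490, up to 0.450 over the alternatives). *Mllt10* (AF10), a relative of *Mllt6*, had the only loss called by limma without a trend, 77.3 kb behind its TSS. It went from 6.84 ± 0.953 (SD, n = 3) in WT to 4.17 ± 0.414 (SD, n = 3) in cKO (limma adjusted p = 0.0403, up to 0.442 over the alternatives). By limma without a trend no window was called in 8 integrin genes (103 windows, 2 called by edgeR), in *Fam227b* (34 windows, 2 called by edgeR) or in the 4 chemokine receptor and ligand genes with windows (11 windows, 0 called by edgeR). With an intensity trend limma called 16 gains and 5 losses in the related genes (1.57% and 2.01% of all windows). The losses were 1 each in *Mllt10*, *Robo2*, *Lmo3*, *Lmo4* and *Fam227b*, and the gains included 1 in *Itgav*, the alpha V partner of ITGB6 (limma with trend, adjusted p = 0.0177, and 1 call by edgeR in this gene). At an unadjusted p under 0.05, limma without a trend had 14.9% of all windows, 22.1% of the windows of LDB2 partners (43 windows), 14.4% of those of *Mllt6* relatives (15 windows), 10.7% of those of integrins (11 windows), 9.47% of those of SLIT and ROBO genes (27 windows), 9.09% of those of chemokine genes (1 window) and 5.88% of those of *Fam227b* (2 windows).

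The edgeR calls in the LDB2 partners were 2 in *Isl1*, 1 in *Lhx2* and 1 in *Lmo4*, and 0 in *Ssbp3*. It called 0 of the SLIT and ROBO genes, and in the relatives of *Mllt6* it called 2 in *Mllt3* and 0 in *Mllt10*. The 8 calls fell to 0 without WT replicate 1, WT replicate 2, WT replicate 4 or cKO replicate 4 and to 2 without cKO replicate 3, and rose to 27 without cKO replicate 1. The calls over all windows moved alike: 1 or 0 in those 4 fits, 0.323% without cKO replicate 3 (0.273% of the related windows) and 3.30% without cKO replicate 1 (3.69% of the related windows).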

How the data were processed

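The libraries were sequenced on a NextSeq500 (single end). Per the labels and the methods of the study, the authors trimmed reads with Trim Galore 0.4.2, mapped them with Bowtie2 2.2.9 to GRCm38, kept mapping qualities of at least 20 and quantified 5 kb windows with SeqMonk. As deposited, H3K4me3 is a linear score that can fall below 0, namely RPKM after the enrichment normalization of the authors. The deposited input values are a signal, reads per window scaled to library size by the authors. The normalization shifts and scales each library, so a library with little enrichment has its noise stretched with its signal. Of 4 libraries per genotype named in the methods, 3 were analysed here.

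Values stepped by whole reads in every H3K4me3 and input library, which gave the reads per window (duplicates cannot be told from independent fragments). The H3K4me3 test was a linear model in limma 3.58.1 (R 4.3.3) on the deposited values (no intensity trend, no block, two-sided, Benjamini-Hochberg over 544879 windows, adjusted p under 0.05), and input was fitted with an intensity trend on log2(value + 0.1). edgeR 4.0.16 (TMM, quasi-likelihood test, at least 10 reads) was run on whole reads. The functions were tested on simulated data. Gene models came from GENCODE M21 and sequence from GRCm38, the build of the windows; the sequence of the *Fam227a* window is not reported here. The related genes, marker genes and windows described in full (largest, smallest and TSS window, runs of calls, genes most like the members) were set by rule. The members and lists were chosen with earlier results of these data known. A few further windows (chr2:60635001-60640000 in *Itgb6*, the window at *Josd1*), *Dnmt3a* and the edgeR calls in *Isl1* and *Mllt3* were named after their values were seen. Python 3.11.15, numpy 2.4.6, pandas 2.3.3, pysam 0.24.0 and matplotlib 3.10.9 were used. The p-values set the difference between genotypes against the spread between these libraries, which both tools moderate with information from all windows.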

Additional observations from a re-analysis of the deposited data

How the results depend on the processing

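The count of gains in member windows (28) was 0 on log2(value + 1), on log2(value + 0.1), after quantile normalization and at adjusted p under 0.01, and so was the number of members with a call (6 as reported), although 83, 77 and 82 member windows had a positive difference at an unadjusted p under 0.05 in the former 3 of these settings by limma. Over all windows these settings called 0, 0, 1 and 0. The count was 51 with an intensity trend, and 0 to 40 with each library left out, with 0 to 6 members called. Losses (0) were 1 with the replicate block and 0 to 1 with a library left out. The 8 calls in related genes were 21 with an intensity trend (16 gains and 5 losses, 2.87%, against 3.58% of all windows), 0 on log2(value + 1) and 0 to 27 with a library left out. Numbers 1 and 4 are shared by both genotypes but the labels mark no shared litter or day, and deviations correlated at 0.319 and 0.0190. With the replicate block, 54 member gains and 45 related windows (6.15%) were called, and 6.14% of all windows. In this fit WT replicate 2 and cKO replicate 3 have no partner, so the difference rests on replicates 1 and 4. It leaves 1 residual degree of freedom, and its calls carry little weight.

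Adding the flanks changed the mean difference to 1.98 in *Itgb6*, 1.46 in *Mllt6*, 0.675 in *Ackr3*, 0.706 in *Slit3*, 0.329 in *Ldb2* and 0.972 in *Fam227a*. Leaving out the TSS window changed it to 0.392 in *Ackr3*. The log2 read ratio with 0.1 added was 1.68 in *Itgb6* and 1.91 in *Mllt6*. With input subtracted (values below 0 set to 0, 0.5 added) WT is at or near 0 in most of these windows, so the log2 difference is set largely by the 0.5 and is no measure of size; it was 3.35 in *Itgb6*, 3.01 in *Mllt6*, 3.05 in *Ackr3*, 2.05 in *Slit3*, 2.16 in *Ldb2* and 2.05 in *Fam227a*. The TSS window of *Fam227a* ran from -0.11 to 1.42 with a library left out. Spearman's rho was 0.373 in *Itgb6* for the densest 1 kb and 0.746 in *Fam227a* without the TSS window. Windows that overlap each gene in GENCODE M21, chosen after seeing the data, gave 28 gains. The causes were not tested. Each H3K4me3 value rests on few reads, 12 to 82 per WT library in the largest-gain windows.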
